A study of Mus musculus with 48 samples.

Results

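The genes described are 9 secreted trophic and growth factors, *Igf1*, *Igfbp3*, *Hbegf*, *Areg*, *Ereg*, *Fgf2*, *Gdf15*, *Inhba* and *Bdnf*, taken by their symbols from a deposited table of 24973 mouse genes, in which all 9 were found. The table gives RNA levels in endothelial cells, pericytes, astrocytes and microglia, the cells of the neurovascular unit (NVU), which were sorted from the brains of adult male wild-type C57BL/6 mice after transient occlusion of the middle cerebral artery (tMCAO), a filament model of ischemic stroke. The filament stayed in place for 1 h, and brains were taken 24 h after the start of the occlusion. Each cell type was represented by 6 libraries from the ischemic ipsilateral hemisphere and 6 from the contralateral hemisphere, 48 libraries in all, and each library came from a pool of 3 to 4 mice.

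Every mouse had been operated and had survived with moderate to severe deficits, and the contralateral hemisphere of the same animals stood in for sham surgery, so that any effect of stroke on both hemispheres was not measured. Microglia were gated as CD45low and CD11b+ cells and the other cell types as CD45-negative cells. The labels number the replicates but do not state that a number marks the same pool in both hemispheres, so that counts over pairs of libraries with the same number are given as a description. In 12 libraries, all ipsilateral and from pericytes or microglia, sample titles and column names gave opposite cell types, and the column names were used. In the ipsilateral libraries, 4 of 5 pericyte and 7 of 7 microglia markers followed the column names. No comparison of hemispheres in pericytes or microglia could be made without these 12 libraries. Comparisons of hemispheres in endothelial cells and astrocytes did not rest on them. Contralateral levels did not come from them either, although the joint fit described below drew its spread from all 48 libraries.

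Normalized counts, the unit of all levels below, are read counts per gene divided by a size factor for each library. They summed to between 10549900 and 16942165 per library, and the spacing of low values put 1 read at 0.664 to 2.37 normalized counts, which gives 4.94 to 17.1 M reads on genes. A floor of 3 reads corresponded to 1.99 to 7.10 normalized counts, which allows for counting error alone. In both hemispheres the lowest value in the own cell type was above the highest value in any other cell type for 4 of 4 endothelial, 4 of 5 pericyte, 4 of 4 astrocyte and 7 of 7 microglia markers, *Kcnj8* being the pericyte marker that failed. RNA of microglia, neutrophils and monocytes was also found in the other cell types, mostly in replicates 1 to 4: the summed level of 7 microglia markers in ipsilateral pericytes was 12861 to 55693 in replicates 1 to 4 and 691 to 911 in replicates 5 and 6. The astrocyte libraries held RNA of other neural cells, with a sum of 5 oligodendrocyte lineage markers of 31177 to 283940 contralaterally and 59814 to 350952 ipsilaterally. The sum of 4 astrocyte markers in the same libraries was 57129 to 114614 contralaterally and 41095 to 121715 ipsilaterally. The part of oligodendrocyte lineage RNA in the astrocyte levels and changes given below was not tested.

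The factors belong to separate signalling families. *Igf1* encodes insulin-like growth factor 1, a survival and growth signal that acts through a receptor tyrosine kinase, and *Igfbp3* encodes a carrier that binds it in blood and tissue. *Hbegf*, *Areg* and *Ereg* encode heparin-binding EGF-like growth factor, amphiregulin and epiregulin, which are made as membrane precursors, released by proteases and bind ErbB receptors. *Fgf2* encodes a fibroblast growth factor that leaves cells without a signal peptide and acts on endothelial cells, glia and neurons. *Gdf15* and *Inhba* belong to the TGF-beta superfamily: the former encodes a stress-induced cytokine whose receptor lies in the hindbrain, the latter the subunit of activin A. *Bdnf* encodes the neurotrophin that binds TrkB, and its gene has many alternative promoters.

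Promoters of 7 of the 9 genes, in 14 windows, were read from the RefSeq table of build GRCm38.p6, 7 of these windows belonging to *Bdnf* and 2 to *Gdf15*. The 250 bases upstream of the start sites of *Igf1* and *Gdf15* are shown because *Igf1* gave the only stroke change that passed the test and *Gdf15* the largest fold change. Capitals mark matches to the motifs searched, and the strand is that of the gene.
*Igf1*, start site within the gene, chr10:87860861-87861110, plus strand: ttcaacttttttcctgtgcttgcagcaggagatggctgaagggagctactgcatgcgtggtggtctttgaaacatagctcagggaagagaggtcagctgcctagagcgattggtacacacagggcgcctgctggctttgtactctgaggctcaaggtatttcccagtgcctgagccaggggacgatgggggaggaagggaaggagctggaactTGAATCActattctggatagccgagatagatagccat
*Gdf15*, start site within the gene, chr8:70632096-70632345, minus strand: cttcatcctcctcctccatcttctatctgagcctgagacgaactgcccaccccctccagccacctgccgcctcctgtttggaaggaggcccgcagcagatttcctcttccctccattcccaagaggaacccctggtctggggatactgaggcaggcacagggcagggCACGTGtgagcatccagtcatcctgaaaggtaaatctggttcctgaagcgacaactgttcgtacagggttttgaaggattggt
*Gdf15*, start site at the outer end of the gene, chr8:70632457-70632706, minus strand: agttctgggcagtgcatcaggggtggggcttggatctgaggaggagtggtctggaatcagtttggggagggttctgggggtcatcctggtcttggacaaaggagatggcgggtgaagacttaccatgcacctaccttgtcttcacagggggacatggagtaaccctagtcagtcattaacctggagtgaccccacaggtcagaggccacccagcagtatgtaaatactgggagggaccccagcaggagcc
The capitals in *Igf1* are a match to the activator protein 1 motif TGANTCA, which matched on both strands and lies 37 to 31 bases before the start site. It was present in 6.75% of the 32851 promoter windows in the table, of the same 250 bases, and in 2 of the 14 member windows, the other being a *Bdnf* promoter. In *Gdf15* the capitals are 2 overlapping matches, on opposite strands, to the hypoxia response element core ACGTG, within 83 to 78 bases before the inner start site. This core was present in 16.6% of all windows and in 3 member windows, of which the others were *Bdnf* promoters. The outer *Gdf15* window held no match to any motif searched. Of the other motifs, each searched on both strands, the cyclic AMP response element TGACGTCA (1.55% of all windows) was found in the *Areg* promoter and the STAT motif TTCNNNGAA (7.02%) in a *Bdnf* promoter, while the C/EBP-ATF motif TGATGNAA (3.45%) was found in none of the member windows. No match overlapped a match to another motif. The promoters of *Hbegf* and *Ereg* are not shown.

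Whether stroke changed these genes was tested by comparing hemispheres within each cell type, with limma on log2(normalized count + 1) and Benjamini-Hochberg adjustment over all genes whose mean reached 10 normalized counts. A gene was called regulated when its adjusted p was at most 0.05, its level differed by 1.5-fold or more in either direction, and all 6 libraries of either hemisphere were above 10 normalized counts. *Igf1* in microglia was the only call among the 25 tests of the 9 genes, and it was upward. In microglia 1 of 5 genes tested was called upward, where 4.29% of all genes tested were, and none downward, where 6.27% were. In astrocytes none of the 9 genes was called, with 0.334% of all genes tested called upward and 0.00655% downward. None of the 7 genes tested in pericytes was called (0.441% upward and 0.581% downward among all genes), and none of the 4 tested in endothelial cells (0.362% and 0.128%). In these bulk samples a change in the number of cells that express a gene and a change in RNA per cell cannot be told apart.

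**Figure D1:**
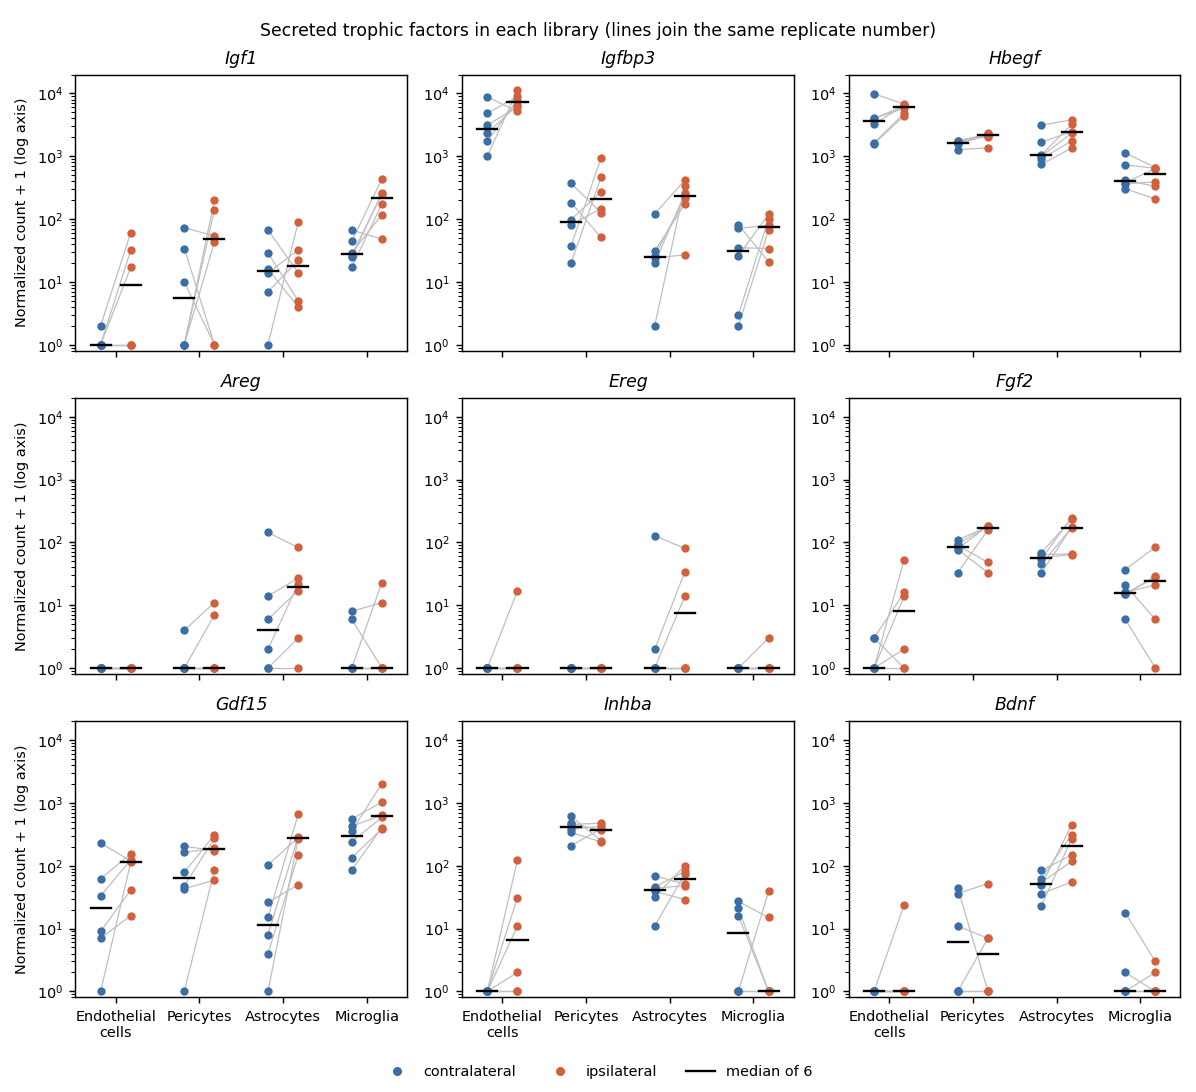
Each panel plots 1 gene, with the normalized count + 1 of every library on a log axis for the 4 cell types. Blue points are contralateral and orange points ipsilateral libraries, grey lines join libraries of the same replicate number, and bars are medians of 6. *Igf1* in microglia and *Gdf15* in astrocytes are higher ipsilaterally in most pairs. *Areg* and *Ereg* are at 0 in most libraries and reach at most 22 and 16 outside astrocytes. The hemispheres overlap in every panel and cell type.

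Changes that missed the adjusted threshold were counted against the same background. In astrocytes all 9 genes had a positive log2 fold change, with a median of 1.20, the value of *Ereg*, against -0.06 over all genes tested. The log2 fold change of *Igf1* was negative, at -0.79, without replicate 3. The ratios of means of *Areg* and *Ereg* were below 1, and *Ereg* was at 0 in 4 contralateral and 3 ipsilateral astrocyte libraries. The 9 genes were chosen with earlier results of these data known. The ipsilateral value was higher in all 6 pairs for 5 of them, *Igfbp3*, *Hbegf*, *Fgf2*, *Gdf15* and *Bdnf*, against 5.02% of all genes tested, and the same 5 had an unadjusted p under 0.05 with a positive change, against 5.14%. The corresponding counts were 1 of 7 for all pairs and 1 of 7 for the unadjusted p in pericytes (4.55% and 6.96% of all genes), 0 of 3 and 1 of 3 in endothelial cells (4.77% and 5.94%) and 1 of 5 and 2 of 5 in microglia (9.49% and 10.6%). *Inhba* in endothelial cells is left out of these counts, because it reached the filter only through the ipsilateral libraries. No gene was lower at an unadjusted p under 0.05 in any cell type.

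**Figure D2:**
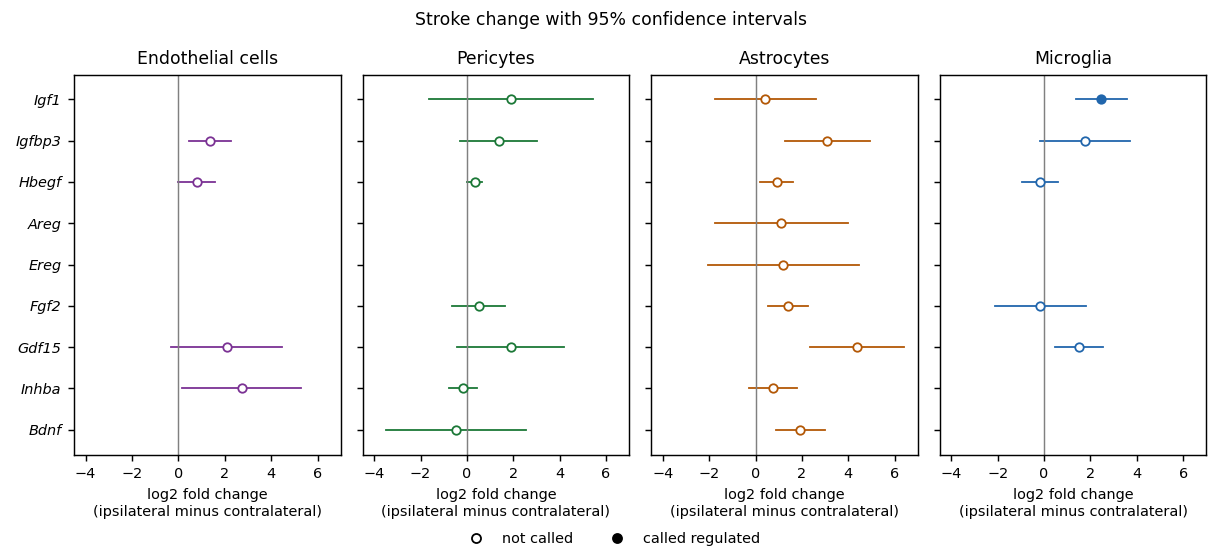
Log2 fold changes (x axis, ipsilateral minus contralateral) of the 9 genes in each cell type, with 95% confidence intervals, for the 25 tests made. Filled circles were called regulated and open circles were not. *Igf1* in microglia is the only filled circle, and *Gdf15* in astrocytes lies farthest to the right, at 4.38. The value of *Inhba* in endothelial cells is against a group at 0 and depends on the added count of 1.

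Contralateral levels and stroke changes were also compared between cell types. In a joint fit of all 48 libraries, 7 of the 9 genes had a mean of at least 10 and were tested, *Areg* and *Ereg* falling below it. This fit had no block and treated libraries as independent, although the cell types were sorted from shared pools. Of 42 contrasts of contralateral levels, 28 passed an adjusted p of 0.05 (limma), in a background in which such differences were common: 5 of 7 genes differed between endothelial cells and pericytes (35.4% of all genes tested), 6 between endothelial cells and astrocytes (50.1%), 5 between endothelial cells and microglia (42.6%), 3 between pericytes and astrocytes (46.3%), 5 between pericytes and microglia (48.9%) and 4 between astrocytes and microglia (51.7%). For differences in stroke change, none of the 42 contrasts passed in limma, and 3 had an unadjusted p under 0.05, namely *Inhba* in endothelial cells against pericytes and against microglia, and *Hbegf* in astrocytes against microglia. Both contrasts of *Inhba* rest on a contralateral endothelial group at 0 in all libraries. Among all genes, the share called was 0.0267% for endothelial cells against pericytes, 0.06% against astrocytes and 0.273% against microglia, 0.00667% for pericytes against astrocytes and 0.727% against microglia, and 0.293% for astrocytes against microglia. A change in 1 cell type is therefore not shown to differ from that in another.

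**Figure D3:**
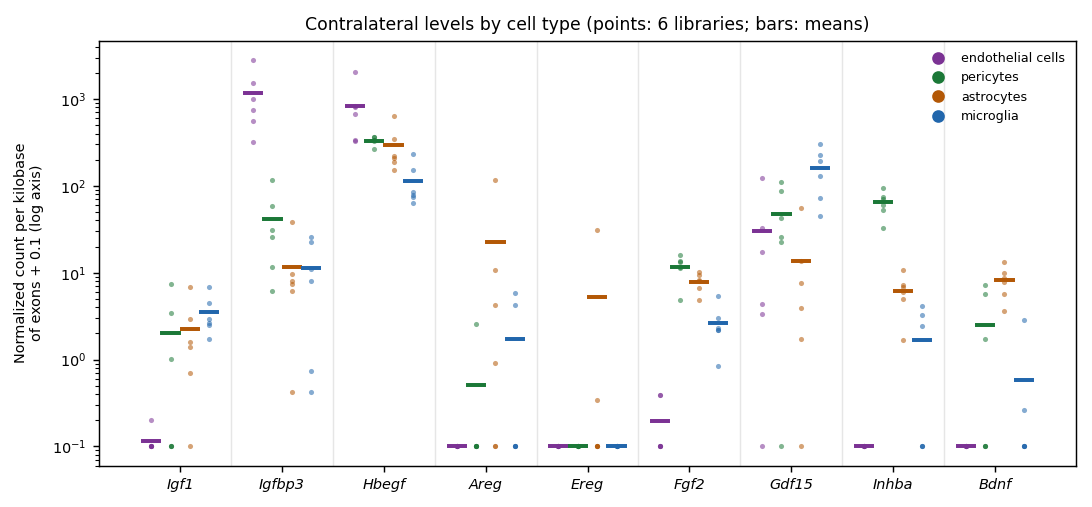
Contralateral levels as normalized counts per kilobase of exons, plus 0.1, on a log axis, for the 9 genes and 4 cell types, which are coloured. Points are the 6 libraries and bars their means. *Igfbp3* and *Hbegf* in endothelial cells have the highest means, 1163 and 839 per kilobase.

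*Igf1* (ENSMUSG00000020053, chromosome 10, 87858265 to 87937042, GRCm38) was highest in ipsilateral microglia. The contralateral microglia libraries had 16, 43, 24, 25, 66 and 28 normalized counts in replicates 1 to 6, and the ipsilateral libraries had 173, 433, 253, 255, 47 and 116. The level was thus higher ipsilaterally in 5 of 6 pairs, and only replicate 5 went the other way, so that the groups overlapped through its 2 libraries. The median log2 ratio was 3.32 in replicates 1 to 4 and 0.77 in replicates 5 and 6. The mean rose from 33.7 ± 18.1 to 213 ± 134 (SD, n = 6), a ratio of means of 6.32, and the log2 fold change was 2.47 (SE 0.52, limma adjusted p = 0.00742). Leaving out each replicate in turn gave log2 fold changes of 2.30 to 3.06 and adjusted p of 0.00193 to 0.0499 in limma, and the call was lost in the joint fit of 48 libraries (adjusted p = 0.237). The summed level of 7 monocyte and macrophage markers in the microglia libraries was 292 to 1629 contralaterally and 1992 to 5466 ipsilaterally, without overlap. Of these markers only *Ly6c2* was at 0 in any microglia library, 1 contralateral library. The sum of 7 neutrophil markers overlapped, at 6423 to 8009 contralaterally and 4381 to 18776 ipsilaterally, and was highest in ipsilateral replicate 2, the library with the highest *Igf1* and *Gdf15* levels. Among these markers *S100a8* and *S100a9* were higher ipsilaterally without overlap (20 to 534 against 571 to 9831, and 26 to 251 against 543 to 5263). *Csf3r* was lower without overlap (5562 to 7882 against 718 to 3457) and made up most of the contralateral sum. The overlap of the sums thus joins shifts in opposite directions, and the sum is not read as the level of neutrophil RNA. *Ly6g* was at 0 in 6 contralateral and 2 ipsilateral libraries. The sum of 7 microglia markers was lower ipsilaterally, 188918 to 334829 against 397638 to 482298, and the part of these shifts in the *Igf1* result was not tested.

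Outside microglia, *Igf1* was low and variable. Contralateral pericytes had 0 to 72 (median 4.5) and ipsilateral pericytes 0 to 199 (median 47.5), contralateral astrocytes 0 to 66 (median 14) and ipsilateral astrocytes 3 to 88 (median 17). In endothelial cells it was detected in 1 contralateral library, at 1 normalized count and below the floor, and in ipsilateral replicates 2, 3 and 4 at 31, 60 and 16. The log2 fold changes of 1.89 in pericytes and 0.42 in astrocytes did not pass (limma adjusted p = 0.623 and 0.936), and *Igf1* in endothelial cells was below the filter. In pericyte replicates 1, 3 and 4, *Igf1* was at 0 contralaterally and at 42, 140 and 199 ipsilaterally. Replicates 2, 5 and 6 went the other way, from 72, 33 and 9 to 53, 0 and 0. The microglia marker sums in ipsilateral pericytes given above were also lowest in replicates 5 and 6, and their part in the *Igf1* values was not tested. In contralateral hemispheres the order of *Igf1* levels was microglia, astrocytes, pericytes and endothelial cells. Neighbours in that order did not differ beyond their spread (limma adjusted p = 0.36, 0.453 and 0.145), whereas endothelial cells were below microglia and astrocytes (0.000993 and 0.0158). Across the 48 libraries the genes most like *Igf1* were *Rab7b*, *Hk3* and *Pirb* (Pearson's r = 0.855, 0.797 and 0.791 of log2 values), a description over libraries that share cell types and pools.

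*Igfbp3* (ENSMUSG00000020427, chromosome 11, 7206086 to 7213923) was an endothelial transcript with a higher mean in the ipsilateral hemisphere of every cell type. Contralateral endothelial cells had 1008 to 8800 normalized counts (median 2733.5), and ipsilateral ones 5161 to 11157 (median 7209.5), overlapping through the contralateral replicate 4 at 8800. Pericytes had 19 to 369 contralaterally (median 88.5) and 50 to 950 ipsilaterally (median 209). In the contralateral hemisphere endothelial cells were above pericytes by 5.06 on the log2 scale, above astrocytes by 7.07 and above microglia by 7.33 (limma adjusted p = 2.53e-06, 1.14e-09 and 5.37e-10), pericytes were above astrocytes and microglia (0.043 and 0.0204), and the latter did not differ beyond their spread (0.824). In astrocytes *Igfbp3* was at 1 to 120 (median 24) contralaterally and 26 to 414 (median 236) ipsilaterally, with a ratio of means of 6.52 and higher values in 6 of 6 pairs. Endothelial cells and pericytes had log2 fold changes of 1.37 (SE 0.42) and 1.36 (SE 0.78), astrocytes of 3.10 (SE 0.86) and microglia of 1.75 (SE 0.91), microglial levels being 1 to 80 (median 29.5) and 20 to 119 (median 72.5). None passed, with limma adjusted p of 0.18, 0.427, 0.227 and 0.222 in that order. The sum of 4 endothelial markers was 63144 to 92219 in contralateral endothelial cells. It was 792 to 3027 in contralateral pericytes, 157 to 1318 in astrocytes and 255 to 1217 in microglia. Ipsilaterally these cell types had 1263 to 6219, 122 to 1577 and 243 to 2305. The part of endothelial RNA in their *Igfbp3* levels and changes was not tested. *Tmem252*, *Rasip1* and *Egfl7* had the patterns most like *Igfbp3* (r = 0.929, 0.919 and 0.917).

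*Hbegf* (ENSMUSG00000024486, chromosome 18, 36504929 to 36515805) was the only gene of the 9 above 10 normalized counts in all 48 libraries. Contralateral levels fell from endothelial cells (1583 to 9900, median 3597.5) to pericytes (1272 to 1777, median 1624), astrocytes (743 to 3123, median 1029.5) and microglia (303 to 1133, median 397). All contrasts between cell types passed except pericytes against astrocytes (limma adjusted p = 0.414). In ipsilateral astrocytes the range was 1347 to 3802 (median 2391), higher in 6 of 6 pairs, and the log2 fold change was 0.91 with a 95% confidence interval of 0.18 to 1.64 (limma adjusted p = 0.435). The libraries of a hemisphere lay far apart, contralateral replicate 6, at 3123, being above 4 of the 6 ipsilateral libraries. Ipsilateral pericytes had 1359 to 2303 (median 2168), also higher in 6 of 6 pairs but by a log2 fold change of only 0.34 (SE 0.15, limma adjusted p = 0.313). In ipsilateral endothelial cells the level was 4425 to 6737 (median 6088), with a log2 fold change of 0.79, and in ipsilateral microglia 208 to 658 (median 511.5), with -0.16 and lower values in 4 of 6 pairs (limma adjusted p = 0.421 and 0.796). The change in astrocytes exceeded that in microglia by 1.07 on the log2 scale, a difference that did not pass (limma adjusted p = 0.525). Its nearest patterns were those of *Ldb2*, *Pik3r3* and *Efna1* (r = 0.871, 0.849 and 0.845).

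The neighbouring genes *Areg* (ENSMUSG00000029378, chromosome 5, 91139599 to 91148432) and *Ereg* (ENSMUSG00000029377, chromosome 5, 91074622 to 91093646) were detected mainly in astrocytes. *Areg* was at 0 in 32 and *Ereg* in 41 of the 48 libraries, and in both hemispheres of endothelial cells *Areg* was at 0 throughout. In astrocyte replicates 1 to 6, *Areg* was at 0, 1, 5, 0, 13 and 143 contralaterally and at 0, 21, 16, 2, 26 and 82 ipsilaterally. *Ereg* was at 0, 0, 0, 0, 1 and 127 and at 0, 13, 0, 0, 33 and 79. Replicate 6 therefore gave the highest value of both genes in both hemispheres of astrocytes, and its contralateral library was above its ipsilateral one. The log2 fold changes in astrocytes were 1.12 for *Areg* and 1.20 for *Ereg* (limma adjusted p = 0.852 and 0.861), although the ratios of means were 0.907 and 0.977, so that the direction depended on the scale. Elsewhere *Areg* reached 10 in pericytes and 22 in microglia, and *Ereg* was above the floor only in ipsilateral endothelial replicate 1, at 16. A level of 0 allows up to the floor of 3 reads in a library, and neither gene was tested outside astrocytes.

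*Fgf2* (ENSMUSG00000037225, chromosome 3, 37348346 to 37410108) was carried by pericytes and astrocytes. Contralateral pericytes had 32 to 108 normalized counts (median 83.5) and contralateral astrocytes 32 to 68 (median 55), which did not differ beyond their spread (limma adjusted p = 0.619). Contralateral microglia had 5 to 36 (median 14.5), below pericytes (0.0167) and not beyond the spread from astrocytes (0.0674, both limma adjusted p). In contralateral endothelial cells 4 of 6 libraries were at 0 and the others at 2, and *Fgf2* was below that of each other cell type there (limma adjusted p between 9.24e-08 and 0.000326). Ipsilateral astrocytes had 172, 170, 65, 63, 232 and 248 in replicates 1 to 6, against 32, 44, 63, 56, 68 and 54, higher in 6 of 6 pairs with hardly any gap in replicates 3 and 4. The log2 fold change of 1.41 (95% confidence interval 0.55 to 2.27) did not pass after adjustment (limma adjusted p = 0.243). In ipsilateral pericytes *Fgf2* was at 32 to 182 (median 167), with replicates 3 and 4 lower and the others higher than contralaterally, and a log2 fold change of 0.50 (SE 0.54). Ipsilateral microglia had 0 to 83 (median 23.5) and a log2 fold change of -0.16 (SE 0.93), while the ratio of means was 1.57. Ipsilateral endothelial cells had 52, 13, 1, 15, 0 and 0, below the filter. *Ppp1r1a*, *Igfbp5* and *Mical2* followed it most closely across libraries (r = 0.851, 0.833 and 0.828).

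*Gdf15* (ENSMUSG00000038508, chromosome 8, 70629393 to 70632456) gave, in astrocytes, the largest of the 25 log2 fold changes. Contralateral astrocytes had 7, 102, 14, 0, 3 and 25 normalized counts in replicates 1 to 6 and ipsilateral astrocytes 290, 279, 656, 268, 146 and 49. The ipsilateral library was higher in 6 of 6 pairs, and the groups overlapped only because contralateral replicate 2, at 102, was above ipsilateral replicate 6, at 49. The log2 fold change was 4.38 (SE 0.94, limma adjusted p = 0.0816), the ratio of means was 11.2, and the call was made with a pseudocount of 10 (0.0421), in the joint fit (0.0194) and without replicate 6 (0.0454). Leaving out each replicate gave log2 fold changes of 3.64 to 5.07. Monocyte and macrophage markers summed to 7 to 1352 in contralateral and 243 to 2732 in ipsilateral astrocytes. In replicates 5 and 6 these sums were 7 and 55 contralaterally and 243 and 246 ipsilaterally. The median log2 ratio of *Gdf15* was 3.07 there, against 5.32 in replicates 1 to 4. In replicate 1 the sum was 355 contralaterally and 335 ipsilaterally, and in the other replicates it was higher ipsilaterally. The sum of 7 microglia markers in astrocytes was 2124 to 26889 contralaterally and 1499 to 20737 ipsilaterally. The part of the marker RNA in the change was not tested.

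Microglia had the highest mean *Gdf15* level in both hemispheres. The contralateral microglia libraries were at 240, 357, 423, 556, 133 and 84 and the ipsilateral ones at 586, 2034, 639, 1025, 384 and 403, higher in 6 of 6 pairs while the ranges overlapped. The log2 fold change of 1.51 (SE 0.48) missed the threshold (limma adjusted p = 0.0572) and passed with a pseudocount of 10 (0.0477), after rescaling within the cell type (0.0485) and with a mean of at least 50 as the filter (0.0484). The monocyte, macrophage and neutrophil markers given for *Igf1* shifted in the same libraries, and their part was not tested. Ipsilateral pericytes had 58 to 306 (median 181) against 0 to 203 (median 62.5), and ipsilateral endothelial cells 15 to 154 (median 115) against 0 to 228 (median 20), each higher in 5 of 6 pairs. Their log2 fold changes of 1.89 and 2.08 did not pass (limma adjusted p = 0.424 and 0.493). In contralateral hemispheres microglia were above each other cell type (limma adjusted p = 0.00184 for endothelial cells, 0.033 for pericytes and 0.000169 for astrocytes), and the other cell types did not differ beyond their spread. Replicates 5 and 6 went the other way for pericytes, which were at 203 and 162 where microglia were at 133 and 84. Contralateral pericyte replicate 3 was at 0. *Tgfbi*, *Ifi204* and *Ccl2*, the last of which encodes a chemokine that attracts monocytes, had the most similar patterns (r = 0.779, 0.757 and 0.755).

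**Figure D4:**
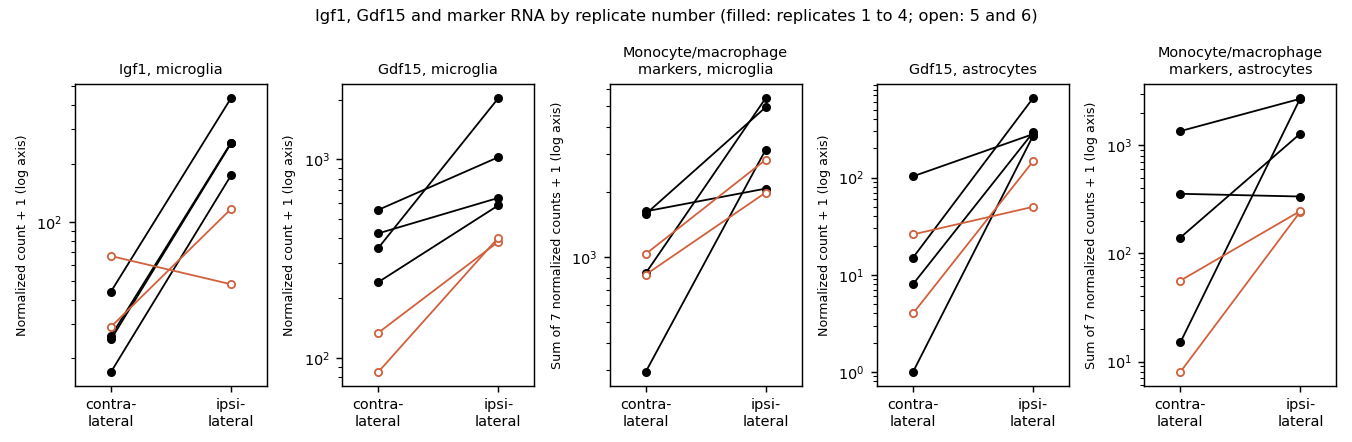
Normalized counts + 1 of *Igf1* and *Gdf15* in microglia and of *Gdf15* in astrocytes, and the summed level of 7 monocyte and macrophage markers + 1 in the same libraries, on log axes that differ between panels. Lines join the contralateral and ipsilateral library of the same replicate number, filled black points are replicates 1 to 4 and open orange points replicates 5 and 6. *Gdf15* is higher ipsilaterally in all 6 pairs of both cell types and *Igf1* in 5 of 6, and the marker sum in microglia lies at 292 to 1629 contralaterally and at 1992 to 5466 ipsilaterally.

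*Inhba* (ENSMUSG00000041324, chromosome 13, 16011851 to 16031621) was a pericyte transcript without a detectable stroke change there. Contralateral pericytes had 207 to 609 normalized counts (median 417.5) and ipsilateral pericytes 238 to 474 (median 375), with 3 of 6 pairs higher and a log2 fold change of -0.18 (95% confidence interval -0.77 to 0.42). Pericytes were above astrocytes by 3.47 on the log2 scale (limma adjusted p = 0.00207), astrocytes above microglia by 2.95 (0.00724), and microglia and endothelial cells did not differ beyond their spread (0.0557). Contralateral endothelial cells were at 0 in all 6 libraries, and the ipsilateral ones at 122, 0, 30, 10, 1 and 0. Levels above the floor were thus seen in replicates 1, 3 and 4, and with a contralateral group at 0 no fold is given (limma adjusted p = 0.379). Microglia marker sums in ipsilateral endothelial cells were 5962 to 42641 in replicates 1 to 4 and 1052 to 1077 in replicates 5 and 6, while microglia themselves had *Inhba* at 0 to 38 ipsilaterally (median 0) and 0 to 26 contralaterally (median 7.5), and the part of other cells in these values was not tested. In astrocytes the level was 10 to 68 (median 40.5) contralaterally and 28 to 99 (median 61.5) ipsilaterally, with a log2 fold change of 0.75 (limma adjusted p = 0.684). *Cyb5r2*, *Cacna2d1* and *Igfbp5* were nearest in pattern (r = 0.881, 0.874 and 0.871), *Igfbp5* being also among those nearest to *Fgf2*.

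*Bdnf* (ENSMUSG00000048482, chromosome 2, 109674700 to 109727007) was detected in every astrocyte library and in a minority of the others. Contralateral astrocytes had 83, 22, 53, 35, 61 and 48 normalized counts and ipsilateral astrocytes 147, 268, 116, 54, 313 and 445 in replicates 1 to 6. The ipsilateral library was higher in 6 of 6 pairs, with overlap through ipsilateral replicate 4 at 54. The mean was 50.3 ± 21.1 against 224 ± 145 (SD, n = 6), and the log2 fold change of 1.94 (95% confidence interval 0.88 to 2.99) did not pass (limma adjusted p = 0.167). The sum of 6 neuron markers in astrocytes was 638 to 4798 contralaterally and 1045 to 7173 ipsilaterally, and it was lowest in replicates 5 and 6, at 1045 to 1338 ipsilaterally. The median log2 ratio of *Bdnf* was 2.76 in those replicates and 0.97 in replicates 1 to 4, and the part of neuronal RNA was not tested. In pericytes 3 libraries of each hemisphere were at 0 and the others reached 44 contralaterally and 51 ipsilaterally, with a log2 fold change of -0.47 (limma adjusted p = 0.903). *Bdnf* in microglia was above the floor in 1 library, contralateral replicate 3 at 17, and in endothelial cells in 1 library, ipsilateral replicate 2 at 23. Astrocytes were above each other cell type in the contralateral hemisphere (limma adjusted p between 1.72e-06 and 0.00349). Microglia did not differ beyond the spread from pericytes (0.183) or endothelial cells (0.494), and pericytes were above endothelial cells (0.041, all limma adjusted p). The genes of most similar pattern were *Gm26523*, *Hs3st3a1* and *Astn1* (r = 0.887, 0.873 and 0.869).

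Receptors, binding proteins, proteases and relatives of the 9 factors were followed in 5 lists, fixed with earlier results of these data known. In the IGF list 17 of 17 genes were in the table, and microglia had 2 of 11 genes tested called up and 3 down (4.29% and 6.27% of all genes tested), with a median log2 fold change of -0.44 against -0.18 over all genes tested. *Igf2r*, the receptor that takes up and clears IGF2, rose from 17 to 307 normalized counts in the mean (log2 fold change 4.69, limma adjusted p = 0.00229), and *Insr*, the insulin receptor, fell (-1.23, limma adjusted p = 0.00725). *Stc1*, which encodes stanniocalcin 1, an inhibitor of the protease that cleaves IGF-binding proteins, rose in microglia (3.71, limma adjusted p = 0.0213). Its means there were 9.83 contralaterally and 62.7 ipsilaterally. It thus reached the filter only through the ipsilateral libraries, and the count of 2 called up includes it. *Stc1* was also the only call of 12 tested in endothelial cells (1.89, limma adjusted p = 0.0211), where 0.362% of all genes were called upward. The other calls in microglia were *Irs2* and *Igf1r*, the receptor of IGF1, which fell by 0.73 and 0.94 on the log2 scale (limma adjusted p = 0.0385 and 0.0493) and are named because they complete the count, chosen after their values were seen. None of 14 IGF list genes in pericytes and none of 13 in astrocytes was called.

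The EGF family and ErbB list, with 16 of 18 genes in the table, gave no call, with 10 genes tested in each vascular cell type, 14 in astrocytes and 9 in microglia. In the FGF list, with 20 of 22 genes in the table, 2 of 12 genes tested in microglia fell (6.27% of all genes were called downward there), both feedback inhibitors of receptor tyrosine kinase signalling: *Dusp6* (-1.33, limma adjusted p = 0.0037) and *Spry1* (-1.85, 0.031). None of 13 was called in endothelial cells, 13 in pericytes or 15 in astrocytes. Of the activin and GDF15 list, 11 of 13 genes were in the table, and the only call was *Acvr2b*, an activin receptor, which fell in microglia (-2.71, limma adjusted p = 0.0297), 1 of 4 genes tested there against the same 6.27%, with 6, 8 and 7 in endothelial cells, pericytes and astrocytes.

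Of the list of neurotrophins and other trophic factors, 15 of 17 genes were in the table, and the calls were downward. *Ptn*, pleiotrophin, fell in endothelial cells from a mean of 5036 to 1357 normalized counts (log2 fold change -1.93, limma adjusted p = 0.021), 1 of 6 genes tested against 0.128% of all genes. *Ntf3*, neurotrophin 3, fell in pericytes from 606 to 204 (-1.68, limma adjusted p = 0.0265), 1 of 12 against 0.581%, and *Sort1*, the sorting receptor of neurotrophin precursors, fell in microglia (-1.04, limma adjusted p = 0.014), 1 of 9 against 6.27%. In astrocytes none of 13 was called, *Ntrk2*, which encodes the BDNF receptor TrkB, having a log2 fold change of -0.44 (SE 0.33), and it is named here after its value was seen.

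**Figure D5:**
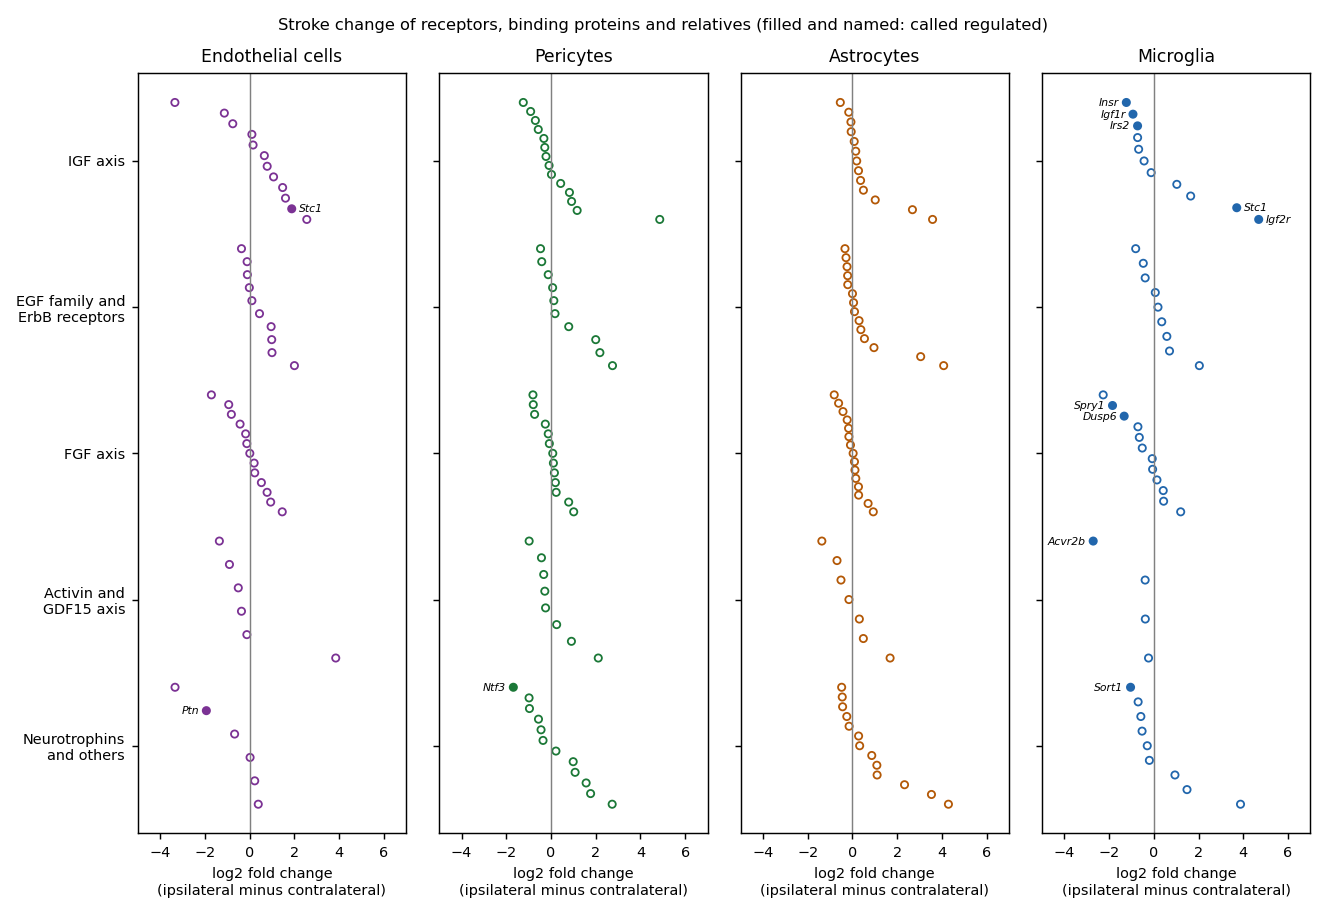
Log2 fold changes (x axis, ipsilateral minus contralateral) of the tested genes of the 5 lists in each cell type, 1 point per gene. Filled, named points were called regulated. Of the 12 filled points 9 lie in microglia, which also hold 1404 of the 1660 calls over all genes, and none in the EGF family list or in astrocytes.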

How the data were processed

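RNA of sorted NVU cells was sequenced in 48 libraries. According to the submitters' processing notes and the methods, the authors trimmed reads with Trimmomatic 0.38, aligned them with STAR 2.6.1d to GRCm38, counted reads on exons with featureCounts 1.6.3, leaving out reads that overlapped several genes or mapped to several places, and normalized the counts with DESeq2 1.18.1. The table the authors deposited holds the normalized counts after rounding to integers, a score rather than raw counts. Coordinates and symbols are those of the deposited table, and exon lengths come from GENCODE.

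From these values, limma 3.58.1 in R 4.3.3 (lmFit, eBayes with trend) was fitted on log2(normalized count + 1) to the 12 libraries of each cell type, without a block. On this scale changes of low genes depend on the added count and can lie above or below the ratio of means. In astrocytes the fit gave 20.9-fold for *Gdf15* against a ratio of means of 11.2, and 3.83-fold for *Bdnf* against 4.45. The tests were two-sided. Contrasts between cell types used all 48 libraries. The code was tested on simulated data. Python 3.11.15 (pandas 2.3.3, numpy 2.4.6, matplotlib 3.10.9) was used for summaries and figures. The members and the lists were chosen with earlier results of these data known. Text named the 9 members, up to 3 called genes per list and cell type, and the 3 genes with the highest Pearson's r to each member.

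No libraries were identical. Alternatives were pseudocounts of 0.1 and 10, the replicate block, the joint fit, rescaling within the cell type, a filter at 50 or none, calls without the rule on expression or on fold size, replicates 1 to 4 only, and the omission of each replicate.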

Additional observations from a re-analysis of the deposited data

Results flagged for a closer look

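Dixon's ratio is the gap of a value to the nearest library, divided by the range of the group. With normal values about 1 in 20 groups pass its critical value by chance, but a single detection among libraries at 0 always passes. The number of groups past it therefore measures no excess over that rate. On the log2(normalized count + 1) scale, 12 of 64 groups of 6 libraries held a value past this critical value. In 7 of them the value was a single detection or near detection among libraries at or close to 0: *Ereg* at 127 in contralateral astrocyte replicate 6 (others 0 to 1), *Bdnf* at 23 in ipsilateral endothelial replicate 2 (others 0), *Bdnf* at 17 in contralateral microglia replicate 3 (others 0 to 1), *Ereg* at 16 in ipsilateral endothelial replicate 1 (others 0), *Areg* at 3 in contralateral pericyte replicate 6, *Ereg* at 2 in ipsilateral microglia replicate 6 and *Igf1* at 1 in contralateral endothelial replicate 3 (others 0 in each).

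The other 5 were low libraries of expressed genes. *Igfbp3* was at 26 in ipsilateral astrocyte replicate 1, where the others had 173 to 414. In pericyte replicate 3, *Hbegf* was at 1272 contralaterally (others 1579 to 1777) and at 1359 ipsilaterally (others 2036 to 2303), so that that number was low in both hemispheres, and *Gdf15* was at 0 contralaterally (others 42 to 203). *Fgf2* was at 32 in contralateral pericyte replicate 5 (others 76 to 108).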

How the results depend on the processing

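Among the 25 stroke changes of the 9 genes, 384 values under alternatives kept the side of the threshold in 374 cases, passed it newly in 9 (*Gdf15* in astrocytes and microglia and *Hbegf* in astrocytes) and lost it in 1, *Igf1* in microglia in the joint fit. No called change reversed, and 7 values of 4 uncalled changes changed sign. The number of calls of a member in a cell type, over the 4 cell types, was 1, and it was 4 with the replicate block, 3 with a pseudocount of 10, 2 after rescaling and 2 with a mean of at least 50, and 1 to 2 with each replicate left out. In astrocytes it went from 0 to 2 with the block, 1 with a pseudocount of 10, 1 in the joint fit and 0 to 1 with each replicate left out, the call without replicate 6 being *Gdf15*. In microglia it went from 1 to 2 with the block, the pseudocount of 10, the rescaling or a mean of at least 50, and to 0 in the joint fit. The block changed none of the 28 calls among 42 level contrasts, and no difference in stroke change was called in limma without or with the block or with a pseudocount of 0.1 or 10, with 3 to 9 contrasts at an unadjusted p under 0.05.

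The replicate block takes same-numbered libraries as pairs, which the labels do not state. Deviations from group means correlated between same-numbered libraries with a mean r of 0.227 in endothelial cells (lowest 0.010), 0.227 in pericytes (-0.073), 0.38 in astrocytes (0.019) and 0.135 in microglia (-0.028), and between other numbers with -0.039, -0.045, -0.076 and -0.026, while 3, 3, 4 and 2 of the 6 ipsilateral libraries correlated best with the contralateral library of their own number. The calls with the block were *Gdf15* and *Hbegf* in astrocytes (limma adjusted p = 0.031 and 0.0304) and *Igf1* and *Gdf15* in microglia, *Gdf15* there with 0.00969. Of the 12 calls in the lists 3 were lost with the block (*Stc1* in endothelial cells, *Irs2* and *Igf1r* in microglia) and 6 were added. The added calls were all upward: *Igfbp4* in endothelial cells, *Stc1*, *Btc*, *Tgfa* and *Hgf* in astrocytes, and *Manf* in microglia. The absence of list calls in astrocytes and in the EGF family list therefore held only without the block. The same is true of the purely downward calls in the neurotrophin list.

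All regulated genes numbered 65 in endothelial cells (10 to 84 with each replicate left out, 36 without the filter, 11 with replicates 1 to 4 only, 235 in the joint fit). In pericytes they numbered 139 (11 to 112 with each replicate left out, 226 with the block, 84 without the filter, 31 with replicates 1 to 4 only, 288 in the joint fit). In astrocytes they numbered 52 (12 to 61 with each replicate left out, 34 with a pseudocount of 0.1, 242 with the block, 32 with a mean of at least 50, 89 in the joint fit). In microglia they numbered 1404 (557 to 1909 with each replicate left out, 787 with replicates 1 to 4 only, 827 in the joint fit). Settings that leave out replicates or change the filter fit other libraries or genes, and for the block, the pseudocounts and the joint fit the cause was not tested. Rescaling changed the split of microglia calls from 570 up and 834 down to 684 and 680, and that of pericyte calls from 60 and 79 to 65 and 62. Levels of *Areg*, *Ereg*, *Bdnf* and *Inhba* lie near the floor of 3 reads in several groups, which limits what can be read from them. *Igf1* was at 0 in 14 of the 48 libraries, none of them from microglia. In contralateral endothelial cells *Igf1* and *Fgf2* also lie at or below this floor. The part of depth in these low levels was not tested.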
